A study of Homo sapiens with 2 samples.

Results

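The genes described here encode the channels and the sodium pump that set the electrical behaviour of a cell: 40 genes for sodium, potassium and chloride channels, their accessory subunits, the β subunits of the sodium pump and the FXYD proteins that regulate the pump. They were taken as a list, and every probe set that the platform annotation gave to 1 of them alone was read, which gave 78 probe sets for 38 of the 40 genes, out of 19775 genes on the array. KCNN2 had no probe set of its own and was not analysed here, and the probe sets of KCNJ12 were shared with its near copy KCNJ18. The cells were outgrowth cultures of HUES9, a human embryonic stem cell line taken at passage 32. Their embryoid bodies, floating clumps of differentiating cells, were kept for 10 days and then plated on fibronectin in a medium of defined composition. The group SB-OG received SB-431542, which blocks the type I receptors of TGF-β, activin and nodal, at 10 µM in embryoid bodies and 1 µM in the outgrowth. The group control-OG received 0.01% DMSO, its vehicle. RNA of 3 mixed samples per group, taken at outgrowth passage 5, went on 1 Affymetrix array per group, so n = 1 on each side, and the differences below carry neither replicates nor p-values. All cells come from 1 line, and the question was how blocking these receptors bears on mesodermal differentiation.

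Excitable cells hold a steep sodium and potassium gradient, which the sodium pump builds from ATP. Potassium channels set the resting potential and end the action potential, voltage-gated sodium channels start it, and in skeletal muscle a chloride channel steadies the resting membrane. Maturing muscle is known to replace embryonic channel forms by adult ones, while fibroblasts and epithelia use other potassium channels and pump partners.

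Values are linear array intensities, read against a background level of 27.6 on the SB-OG array and 32.6 on the control-OG array. That level is the 95th percentile of 213 probe sets for 172 olfactory receptor, bitter taste receptor and similar genes. Intensities under it were set to it before a log2 difference, SB-OG minus control-OG, was taken, so a fold with 1 side under background is a lower bound, written "at least". A gene was represented by its probe set of highest mean log2 intensity, and the other probe sets of a listed gene are given beside it where they were above background. Levels of different genes are not compared, because probe sets differ in their response. Within the pair of arrays, probe sets of 1 gene that were above background on both had log2 differences with an SD of 0.46 over 4930 genes. This spread between probe sets leaves out the error that arrays, RNA and cultures add, which 1 array per group cannot show.

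By that rule 26 of the 38 measured genes (68.4%) exceeded background somewhere, against 63.2% of all genes. The 26 were 11 on both arrays, 10 on SB-OG only and 5 on control-OG only. Of all genes, 11624 exceeded it on SB-OG and 11274 on control-OG, 12499 on at least 1 array, so most did on both. Of the 26, 8 (30.8%) lay 2-fold or more above control-OG in SB-OG and 9 (34.6%) lay 2-fold or more below it. Over all 12499 genes above background, these shares were 12.4% higher and 13.0% lower. The median log2 difference was 0.45 over the 26 genes and -0.02 over all genes. The list was drawn up with values of these arrays known, so its larger shares describe the list and support nothing further. The same families hold 102 other genes, of which 84 had a probe set and 25 were above background, 6 at least 2-fold higher (24.0%) and 3 lower (12.0%), with a median of -0.02.

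**Figure D1:**
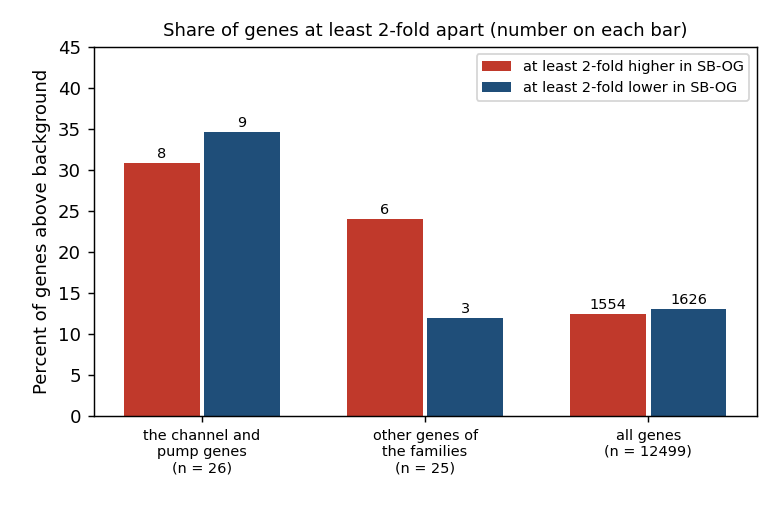
Percent of genes above background (vertical axis) that passed 2-fold upward in SB-OG (red) or downward (blue), for the listed channel and pump genes, the other genes of their families and all genes, with the number of genes on each bar. The listed genes reached 30.8% and 34.6%, against 12.4% and 13.0% of all genes.

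Marker genes of several cell types differed between the cultures. Of 18 skeletal muscle markers, 16 passed 2-fold upward in SB-OG and none downward, with summed intensities of 68941 on SB-OG and 570 on control-OG, and MYF5 under background on both. The log2 difference was 7.33 for TNNI1 and 7.26 for TNNC2, both measured on both arrays, and at least 8.01 for MYH8 and at least 7.20 for CKM, which were under background on control-OG. Of 10 fibroblast markers, 7 passed 2-fold downward and 1 upward, with sums of 51525 on SB-OG and 110544 on control-OG. Of 10 epithelial markers 4 were above background, of which 3 were lower and 1 higher, with sums of 516 on SB-OG and 16568 on control-OG, while EPCAM, CLDN3, CLDN4, CLDN7, GRHL2 and ESRP1 were under background on both. On control-OG that sum was almost all from the 3 lower ones, the keratins KRT18 (8655), KRT19 (4918) and KRT8 (2895). CDH1, the higher one, had 82.8 on SB-OG and 26.9 on control-OG, under background there. Of 7 endothelial markers 4 were above background, of which 3 were lower and none higher, with sums of 144 on SB-OG and 2076 on control-OG. The control-OG sum came mainly from KDR (933), FLT1 (681) and TEK (404). CDH5, VWF and TIE1 were under background on both arrays, and PECAM1 was under it on control-OG, at 25.5. Of 9 cardiac markers with a probe set, 7 were under background on both arrays, NKX2-5, TBX5 and MYL2 among them. In such mixed cultures, fewer cells of a type and less RNA per cell cannot be told apart, and the part of these markers' cell types in each difference below was not tested.

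**Figure D2:**
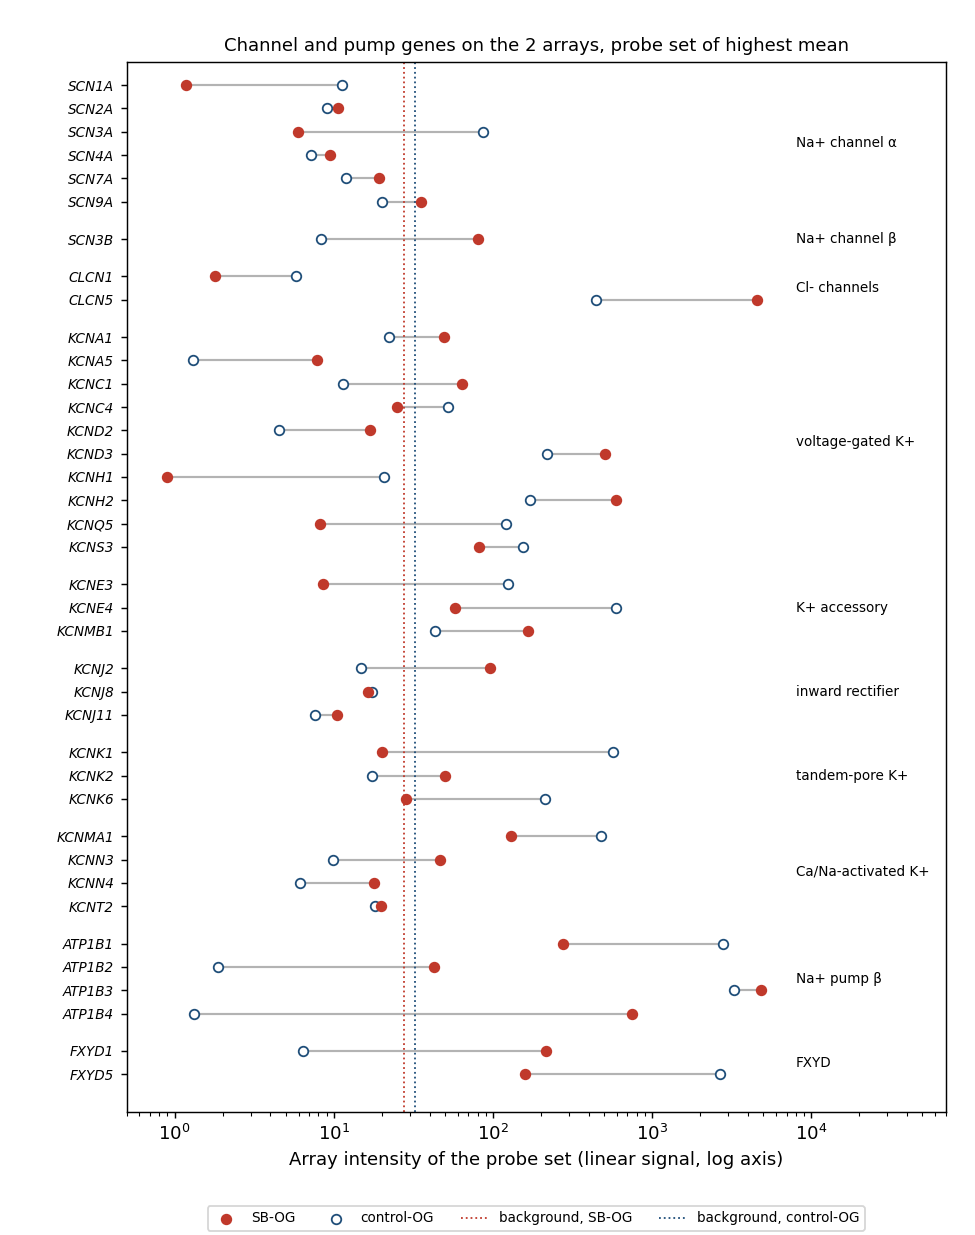
Intensity (horizontal log axis, linear signal) of each of 38 genes on the SB-OG array (filled red) and the control-OG array (open blue), by the probe set of highest mean, grouped by role, with dotted lines at each array's background. ATP1B4 lies at 744 on SB-OG and 1.32 on control-OG, KCNK1 at 20.1 on SB-OG and 572 on control-OG, with 12 genes under background on both arrays.

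Genes of the sodium pump β subunit family, most of whose products carry the pump to the membrane, differed in both directions. ATP1B4, the β subunit homologue of muscle, which in placental mammals sits in the nuclear envelope and no longer works in the pump, had an intensity of 744 on SB-OG and 1.32 on control-OG, at least 22.8-fold higher. Its other probe set read 238 on SB-OG and 0.477 on control-OG, at least 7.30-fold higher, so it was above background on SB-OG alone by both. ATP1B1, the widely used pump β subunit, had 277 on SB-OG and 2796 on control-OG, 10.1-fold lower. Its other probe set had 318 on SB-OG and 1429 on control-OG, 4.49-fold lower, in the same direction but with a smaller difference. ATP1B3, a further β subunit found in many tissues, had 4868 on SB-OG and 3290 on control-OG, 1.48-fold higher, and its other probe sets were under background. The log2 difference of ATP1B3, 0.57, was little above the spread of 0.46 between probe sets. ATP1B2, known from glia and fast muscle fibres, had 42.4 on SB-OG and 1.86 on control-OG, above background on SB-OG alone with a bound of 1.30-fold.

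The FXYD proteins are small single-pass membrane proteins that tune the pump. FXYD1, phospholemman, the form of muscle and heart, had 215 on SB-OG and 6.40 on control-OG, at least 6.60-fold higher. FXYD5, dysadherin, which weakens adhesion between epithelial cells, had 159 on SB-OG and 2690 on control-OG, 17.0-fold lower. The second probe set of FXYD5 had 112 on SB-OG and 1837 on control-OG, 16.4-fold lower, so the pair agreed closely. FXYD1 and FXYD5 lie near each other on chromosome 19 with FXYD7 as the only protein-coding gene between them, and FXYD7 was under background on both arrays. Of the other FXYD genes, FXYD6 had 215 on SB-OG and 222 on control-OG and FXYD3 44.8 on SB-OG and 44.7 on control-OG. Both were within the spread between probe sets, and FXYD2 and FXYD4 were under background on both arrays.

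Promoters are shown for 3 of the higher genes that hold the E-box CAGCTG, the form that myogenic factors such as MYOD1 prefer, for ATP1B4 as the gene with the largest positive difference, and for FXYD5 as the near neighbour of FXYD1 that differed the other way. Each is the 250 bases before the start site, 5′ to 3′ on the gene's strand, from RefSeq on build GRCh38.p14, in lower case with CAGCTG in capitals.
FXYD1, chr19:35138574-35138823, + strand: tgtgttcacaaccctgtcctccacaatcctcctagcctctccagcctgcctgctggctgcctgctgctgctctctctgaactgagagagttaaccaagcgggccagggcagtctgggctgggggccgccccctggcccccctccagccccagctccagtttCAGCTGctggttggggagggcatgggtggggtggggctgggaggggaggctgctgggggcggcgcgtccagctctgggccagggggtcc
KCNJ2, chr17:70169282-70169531, + strand: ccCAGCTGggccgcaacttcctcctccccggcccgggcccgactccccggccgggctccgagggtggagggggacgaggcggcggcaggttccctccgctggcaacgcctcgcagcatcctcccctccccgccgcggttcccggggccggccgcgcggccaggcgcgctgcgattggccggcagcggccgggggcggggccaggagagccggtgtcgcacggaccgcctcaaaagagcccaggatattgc
KCNMB1, chr5:170389368-170389617, - strand: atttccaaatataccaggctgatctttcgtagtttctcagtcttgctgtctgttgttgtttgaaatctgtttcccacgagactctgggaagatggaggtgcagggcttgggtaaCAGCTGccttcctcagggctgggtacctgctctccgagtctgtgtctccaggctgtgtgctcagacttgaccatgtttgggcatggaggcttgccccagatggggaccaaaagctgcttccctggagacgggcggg
ATP1B4, chrX:120361839-120362088, + strand: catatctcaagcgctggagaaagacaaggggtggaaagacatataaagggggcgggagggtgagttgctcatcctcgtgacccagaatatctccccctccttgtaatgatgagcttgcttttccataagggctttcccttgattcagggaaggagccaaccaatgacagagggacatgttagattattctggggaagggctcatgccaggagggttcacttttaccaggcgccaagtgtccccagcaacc
FXYD5, chr19:35154485-35154734, + strand: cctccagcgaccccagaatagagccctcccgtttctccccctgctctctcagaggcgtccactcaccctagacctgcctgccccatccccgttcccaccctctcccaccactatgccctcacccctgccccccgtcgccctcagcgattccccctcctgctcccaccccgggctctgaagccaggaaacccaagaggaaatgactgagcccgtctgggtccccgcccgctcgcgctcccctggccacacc
Counted upstream of the start site, CAGCTG begins at -89 in FXYD1, -248 in KCNJ2 and -136 in KCNMB1.

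Of the 40 genes, 33 matched a promoter by symbol. CAGCTG, which reads the same on both strands, was present in 7 of the 33 (FXYD1, KCNA5, KCNJ2, KCNMB1, KCNN3, KCNS3 and SCN9A) and in 13.8% of 27305 promoters of the same length. Of the genes at least 2-fold higher in SB-OG, 3 of 7 promoters held it, and of the genes at least 2-fold lower, 0 of 7. This split depends on the cutoff, because KCNS3, which holds 2 copies, was 1.89-fold lower and so in neither group. Also outside both groups were SCN9A and KCNN3, at least 1.09-fold and 1.43-fold higher, and KCNA5, under background on both arrays. The looser E-box CANNTG, which contains CAGCTG, was in 19 of the 33 and in 62.2% of all promoters, and in 6 of the 7 higher and 2 of the 7 lower genes. CTANNNNTAG, a form of the MEF2 site that also reads the same on both strands, was in the promoter of CLCN1 alone, and in 2.42% of all promoters. With so few promoters these counts are a description, and a match is not a bound site.

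Among sodium channels, 2 of 6 pore-forming α subunits were above background by the probe set of highest mean. SCN3A, an embryonic form of the brain, had 5.96 on SB-OG and 86.6 on control-OG, at least 3.14-fold lower, and its other probe set was under background. SCN7A, an atypical channel that senses extracellular sodium, had 166 on SB-OG and 0.815 on control-OG by 1 probe set, at least 5.08-fold higher. The other SCN7A probe set, which the rule of highest mean selects, had 19.1 on SB-OG and 12.0 on control-OG, under background on both, so the gene is outside the counts above. SCN9A, the channel of sensory neurons, had 35.4 on SB-OG and 20.1 on control-OG, just above background on SB-OG alone. SCN4A, the α subunit of adult skeletal muscle, had 9.41 on SB-OG and 7.17 on control-OG, under background on both. The brain forms SCN1A (1.18 on SB-OG and 11.3 on control-OG) and SCN2A (10.6 on SB-OG and 9.09 on control-OG) were also under it. The β subunits steer the α subunits to the membrane and adjust their gating. SCN3B had 80.9 on SB-OG and 8.26 on control-OG, at least 2.48-fold higher, and its other probe set had 104 on SB-OG and 3.90 on control-OG, at least 3.20-fold higher.

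SCN3A lies next to SCN2A on chromosome 2, and SCN9A between SCN1A and SCN7A, and of these neighbours SCN3A was lower and SCN7A higher in SB-OG. Neuronal markers also differed in both directions. Of 8 above background, 4 passed 2-fold upward and 1 downward, with sums of 11563 on SB-OG and 7272 on control-OG. Most of both sums was TUBB3, with 6918 on SB-OG and 4141 on control-OG, 1.67-fold higher. The 4 upward ones were SYT1, DCX, NEFL and NEFM. The downward one, STMN2, had 24.3 on SB-OG and 2606 on control-OG, at least 94.4-fold lower. ELAVL3, ELAVL4, RBFOX3, SYN1, SLC17A7, SLC17A6, GAD1 and GAD2 were under background on both arrays. Of the 7 Schwann cell and neural crest markers with a probe set, 4 were above background, 2 of these at least 2-fold higher and none lower, with sums of 1191 on SB-OG and 72.7 on control-OG, and SOX10, CDH19 and TFAP2B were under background on both. Most of the SB-OG sum was ERBB3 (997), followed by NGFR (107), while S100B (35.1) and FOXD3 (30.2) were just above background on SB-OG.

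Of the chloride transporters, CLCN1, the plasma membrane channel that steadies the resting potential of adult skeletal muscle, had 1.78 on SB-OG and 5.78 on control-OG and was under background on both arrays. CLCN5, an exchanger of chloride for protons in endosomes, known from the kidney tubule, had 4536 on SB-OG and 441 on control-OG, 10.3-fold higher. All 5 probe sets of CLCN5 were higher. Of the dimmer ones, those above background on both arrays had 1139 on SB-OG and 68.5 on control-OG (16.6-fold) and 964 on SB-OG and 70.7 on control-OG (13.6-fold). The last ones had 243 and 419 on SB-OG, against 21.3 and 22.9 on control-OG, with bounds of 7.45-fold and 12.9-fold. CLCN5 was thus the gene of the list with the most probe sets in agreement. Of the other endosomal exchangers of its family, CLCN4 had 304 on SB-OG and 17.5 on control-OG, at least 9.32-fold higher, with further bounds of 2.65 to 4.55-fold by 3 more probe sets. CLCN6, of late endosomes, had 122 on SB-OG and 24.0 on control-OG, at least 3.75-fold higher. CLCN3 had 560 on SB-OG and 828 on control-OG, 1.48-fold lower, and the lysosomal CLCN7 had 228 on SB-OG and 232 on control-OG, within the spread. The accessory subunit OSTM1 had 343 on SB-OG and 409 on control-OG, within the spread by its probe set of highest mean, and BSND was under background on both.

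Among voltage-gated potassium channels, KCNH2, the channel whose current ends the cardiac action potential, had 590 on SB-OG and 172 on control-OG, 3.43-fold higher. Its second probe set had 209 on SB-OG and 63.0 on control-OG, 3.32-fold higher, nearly the same ratio. KCND3, which carries a fast transient outward current, had 505 on SB-OG and 218 on control-OG, 2.31-fold higher, and at least 2.55-fold by a second probe set (83.1 on SB-OG and 30.0 on control-OG). KCNC1, a fast channel of high threshold, had 63.9 on SB-OG and 11.4 on control-OG, at least 1.96-fold higher, and as a bound this leaves unknown whether it passed 2-fold. KCNA1, a delayed rectifier of axons, had 49.3 on SB-OG and 22.3 on control-OG, above background on SB-OG alone.

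KCNQ5, a subunit of the slow M-type current also known from skeletal muscle, had 8.20 on SB-OG and 121 on control-OG, at least 4.39-fold lower, and its other probe set was under background on both. KCNS3, a silent subunit that changes the gating of others, had 81.7 on SB-OG and 155 on control-OG, 1.89-fold lower. Its log2 difference was -1.04 after quantile normalization and -1.01 after the lowess correction, both past 2-fold. Every other setting left KCNS3 within 2-fold, from -0.92, as reported, to -0.44 with scaling on the hybridisation controls. KCNC4, a relative of KCNC1, had 24.8 on SB-OG and 52.2 on control-OG, at least 1.89-fold lower, and 20.8 on SB-OG and 42.8 on control-OG by a second probe set, at least 1.55-fold lower. KCNA5 (7.80 on SB-OG and 1.31 on control-OG), KCND2 (16.8 on SB-OG and 4.51 on control-OG) and KCNH1 (0.894 on SB-OG and 20.7 on control-OG) were under background on both arrays. KCNH1 is known for a current that precedes the inward rectifier in human myoblasts before they fuse, and it was not detectable here. Of the other voltage-gated genes, 25 with a probe set, 4 were above background. KCNG1 had 12.3 on SB-OG and 160 on control-OG, at least 5.80-fold lower, and KCNS1 13.8 on SB-OG and 92.2 on control-OG, at least 3.34-fold lower, and both encode silent subunits. KCNF1 and KCNQ1 were above background on SB-OG alone, with bounds of 1.76-fold and 1.97-fold.

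The accessory subunits, which change the gating or the membrane level of potassium channels, included lower KCNE genes. KCNE4, which inhibits several voltage-gated channels, had 58.0 on SB-OG and 589 on control-OG, 10.2-fold lower, and its other probe sets gave bounds of 4.09-fold and 5.43-fold lower. KCNE3 had 8.52 on SB-OG and 125 on control-OG, at least 4.54-fold lower, with its other probe sets under background. KCNE5, an accessory subunit outside the list, went the other way at 182 on SB-OG and 16.2 on control-OG, at least 5.59-fold higher, so the KCNE genes did not share a direction. KCNIP3, a calcium-binding partner of A-type channels outside the list, had 12.0 on SB-OG and 78.0 on control-OG, at least 2.83-fold lower, while another of its probe sets had 37.0 on SB-OG and 7.90 on control-OG, in the opposite direction.

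The large-conductance calcium-activated potassium channel showed opposite differences in its pore and in the β subunits KCNMB1 and KCNMB4. KCNMA1, the pore, had 129 on SB-OG and 478 on control-OG, 3.72-fold lower. A second probe set had 25.8 on SB-OG and 102 on control-OG, at least 3.71-fold lower, but another gave 31.0 on SB-OG and 37.8 on control-OG, 1.22-fold lower and within the spread. KCNMB1, the β subunit of smooth muscle, had 165 on SB-OG and 43.2 on control-OG, 3.82-fold higher, and its other probe set was under background on both. KCNMB4, the β subunit of brain and outside the list, had 301 on SB-OG and 99.6 on control-OG, 3.02-fold higher, with 1.95-fold and 1.48-fold by its other probe sets. The further β subunit genes KCNMB2 and KCNMB3, also outside the list, were under background on both arrays by their probe sets of highest mean. Of 7 smooth muscle markers, all above background, MYH11 and LMOD1 passed 2-fold upward in SB-OG and none downward, with sums of 18456 on SB-OG and 19620 on control-OG and a median log2 difference of -0.51.

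Among the other channels gated by calcium or sodium, KCNN3, a small-conductance channel known in rodents from denervated muscle, was read by 4 probe sets above background, all on SB-OG alone. The probe set of highest mean had 46.7 on SB-OG and 9.84 on control-OG, at least 1.43-fold higher. The other ones had 216, 135 and 108 on SB-OG, against 1.36, 0.962 and 2.73 on control-OG, with bounds of 6.63-fold, 4.14-fold and 3.32-fold. The bound of 1.43-fold that enters the counts is thus the smallest of its values. KCNN4, the intermediate-conductance channel of blood cells and fibroblasts, had 17.8 on SB-OG and 6.10 on control-OG, and KCNT2, gated by sodium, 19.7 on SB-OG and 18.1 on control-OG, both under background.

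Inward rectifiers hold the membrane near the potassium equilibrium potential. KCNJ2, the strong inward rectifier of muscle that hyperpolarises human myoblasts before fusion, had 95.9 on SB-OG and 14.8 on control-OG, at least 2.94-fold higher. KCNJ8 and KCNJ11 form the pore of ATP-sensitive channels. KCNJ11 had 10.5 on SB-OG and 7.57 on control-OG, under background on both, and KCNJ8 was above it by 1 of its 2 probe sets on SB-OG alone, at 37.9 on SB-OG and 4.56 on control-OG. ABCC9, the sulphonylurea receptor that partners these pores in muscle, was outside the list at 69.1 on SB-OG and 8.79 on control-OG, at least 2.12-fold higher, and by bounds of 1.15-fold and 1.13-fold with its other probe sets above background. KCNJ6, a G protein-gated rectifier outside the list, had 190 on SB-OG and 14.2 on control-OG, at least 5.83-fold higher, and at least 2.39-fold by its second probe set.

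Tandem-pore potassium channels carry the resting leak current. KCNK1, a weak inward rectifier of kidney and brain, had 20.1 on SB-OG and 572 on control-OG, at least 20.7-fold lower. A second KCNK1 probe set had 13.2 on SB-OG and 175 on control-OG, at least 6.35-fold lower, and the remaining ones were under background on both arrays. KCNK6, its close relative, had 28.6 on SB-OG and 211 on control-OG, 7.37-fold lower, with the SB-OG value barely above background. KCNK2, opened by membrane stretch, had 50.0 on SB-OG and 17.3 on control-OG, above background on SB-OG alone with a bound of 1.54-fold. The tandem-pore genes of the list thus divided, with KCNK1 and KCNK6 lower and KCNK2 higher in SB-OG. KCNK3, outside the list, had 63.3 on SB-OG and 27.3 on control-OG, at least 1.94-fold higher, and its other probe sets gave 1.15-fold and at least 1.07-fold.

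Where a gene had several probe sets above background, these pointed the same way in 12 of 12 listed genes. Over all 6230 genes with 2 or more such probe sets, 65.1% pointed 1 way. Because the list was drawn up with values of these arrays known and holds more large differences, this contrast describes the list and supports nothing further. Counting every probe set, 28 of the listed genes were above background by at least 1, with SCN7A and KCNJ8 added. By every probe set above background, 9 genes were at least 2-fold higher (SCN3B, CLCN5, KCND3, KCNH2, KCNMB1, KCNJ2, ATP1B4, FXYD1 and SCN7A) and 8 at least 2-fold lower (SCN3A, KCNQ5, KCNE3, KCNE4, KCNK1, KCNK6, ATP1B1 and FXYD5). The share of all genes was not counted by this rule, so these counts describe the list alone. KCNN3 and KCNMA1 passed 2-fold by some of their probe sets and not by others.

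**Figure D3:**
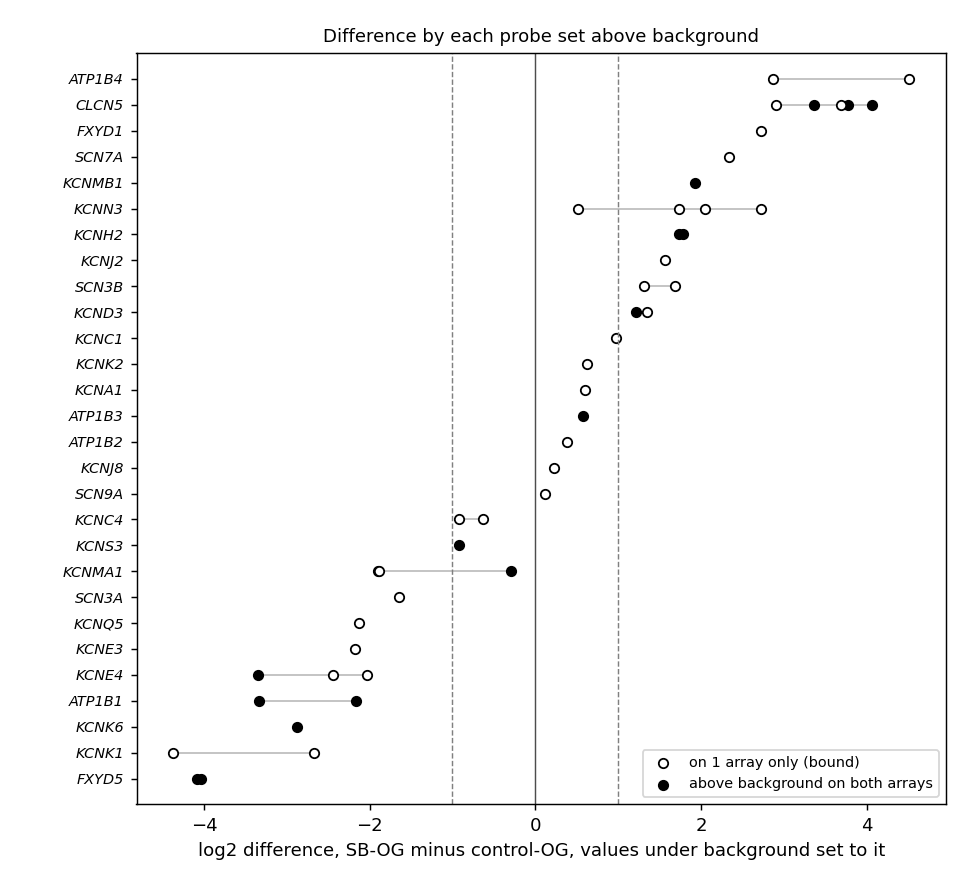
log2 difference, SB-OG minus control-OG (horizontal axis), by each probe set above background on at least 1 array, for 28 genes, filled where it was above background on both arrays and open where only 1 side was (a bound), with dashed lines at 2-fold. CLCN5 lies between 2.90 and 4.06 by 5 probe sets and FXYD5 at -4.08 and -4.04 by its pair, while KCNN3 spreads from 0.52 to 2.73.

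Scaling and probe set choice moved the size of the differences more than their direction. None of the 250 values that the 26 genes had under 10 other settings changed sign. With the background at the 99th percentile, SCN9A, KCNA1, KCNC1, KCNC4, KCNK2, KCNN3 and ATP1B2 had no value, and without probe sets named _s, _x or _a SCN3A, ATP1B1 and FXYD5 had none. Of the 17 genes at least 2-fold apart, 11 stayed so under every setting that gave them a value, 6 higher and 5 lower. The 6 higher ones were CLCN5, KCND3, KCNH2, KCNMB1, ATP1B4 and FXYD1, and the 5 lower ones KCNE4, KCNK1, KCNK6, ATP1B1 and FXYD5, of which ATP1B1 and FXYD5 were tried under 9 settings. SCN3A, SCN3B, KCNQ5, KCNE3 and KCNJ2 fell within 2-fold when the background was set at the 99th percentile, and KCNMA1 when probe sets with _s, _x or _a in their name were left out.

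**Figure D4:**
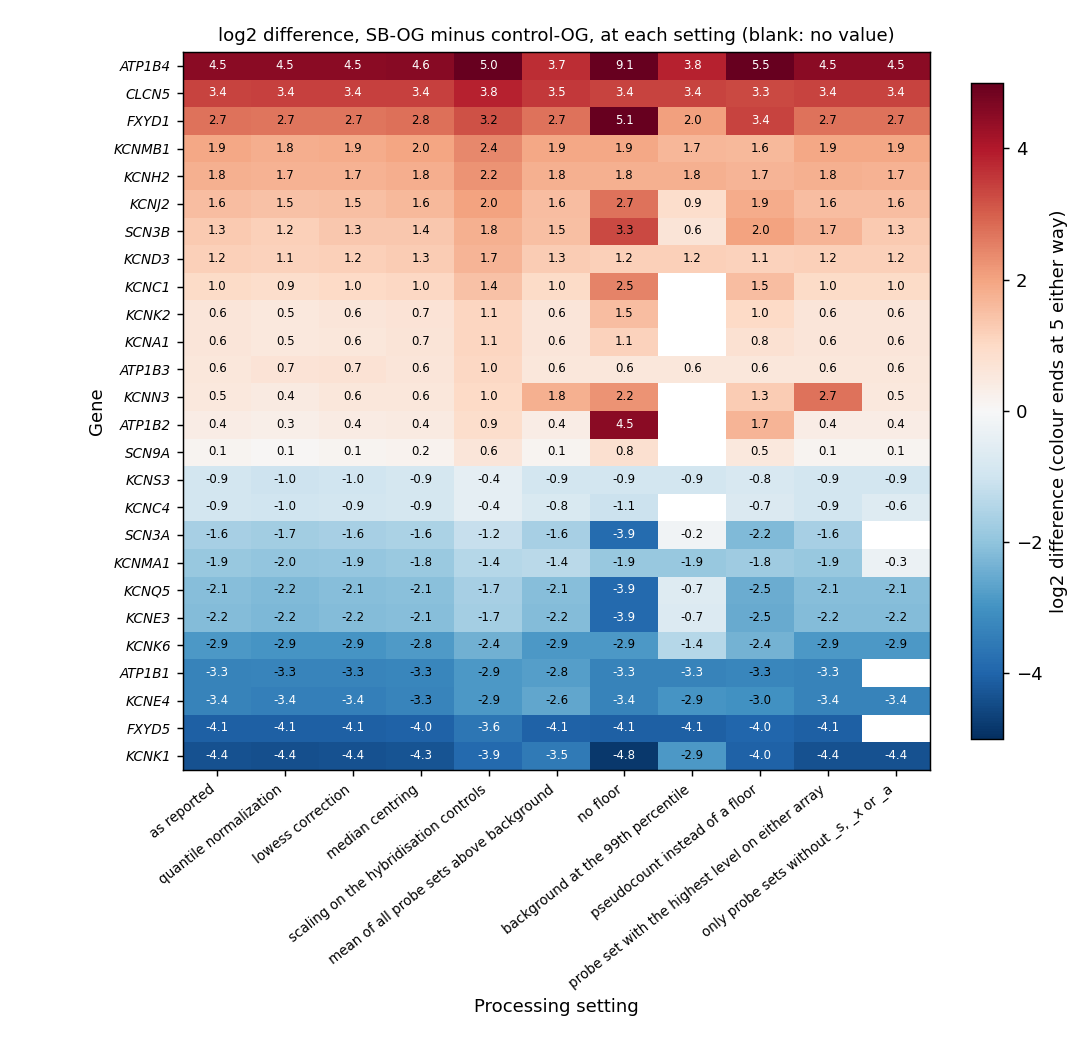
log2 difference, SB-OG minus control-OG, of the 26 genes above background (rows) under the reported setting and 10 others (columns), in red where higher and blue where lower in SB-OG, blank where a setting gave no value. ATP1B4 ran from 3.69 to 9.13 under the other settings and KCNK1 from -4.83 to -2.89, with no change of sign.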

How the data were processed

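RNA of HUES9 outgrowth cultures was read on 1 array per group, SB-OG and control-OG, grouped by sample title. Each array holds biotin-labelled RNA of 3 mixed samples, per the labels. The authors deposited 1 linear intensity for each of 54675 probe sets per array, summarised by software not given in the sources used here. The arrays had the same trimmed mean of 149.98 without the lowest and highest 2%, so a change of the RNA content of cells would not show. Names come from the 2016 platform annotation, with symbols updated by gene ID: 41091 probe sets had 1 gene and were used, 1801 had several, 11721 none in that table, and 62 were controls. In all, 19738 of 19775 gene names were in the gene table of GRCh38.p14.

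With 1 array per group no test was possible. Genes were counted at 2-fold, over genes above background on at least 1 array. The number of arrays limits the precision. All listed genes are named, as are the other family genes at least 2-fold apart, and further genes were picked with their values in view. The members, lists and marker genes were chosen with earlier results of these data known. The calculation was tested on simulated arrays with known changes in genes above background on both arrays. Their noise was smaller than the spread between probe sets, and folds given as bounds were not covered. Alternatives were quantile, lowess (span 0.4), median and spike-in scaling, the mean of all probe sets, probe sets specific by name, a background at the 99th percentile, no floor, a 3-fold threshold and a pseudocount of 16. Python 3.11.15, numpy 2.4.6, pandas 2.3.3 and statsmodels 0.14.6 were used.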

Additional observations from a re-analysis of the deposited data

Results flagged for a closer look

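KCNJ12, the inward rectifier of muscle that is nearly identical to KCNJ18, has only probe sets annotated to both genes, which the comparisons leave out. Of these 3, a pair gave a higher signal on SB-OG than on control-OG and above background, at 62.9 on SB-OG and 56.1 on control-OG, and at 32.7 on SB-OG and 23.8 on control-OG. The first of these had a log2 difference of 0.17, under the spread of 0.46 between probe sets. The other was under background on control-OG, so its difference is only bounded, at 0.01 or more. The remaining one was lower, at 33.3 on SB-OG and 43.2 on control-OG. The genes cannot be told apart by these probe sets.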

How the results depend on the processing

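No paired analysis was possible because each group has 1 array. Of 250 values of single listed genes under 10 other settings, 186 moved by less than the spread of 0.46 between probe sets, 64 moved by more and none reversed. The count of listed genes at least 2-fold higher, 8 as reported, was 13 without a floor and 5 at a 3-fold threshold. Of all genes above background, 12.4% were higher as reported, 15.9% without a floor and 6.33% at a 3-fold threshold. The count of lower ones, 9 as reported, was 5 with probe sets specific by name, where fewer genes have a value. The share of all genes that were lower was 13.0% as reported and 12.6% with those probe sets. The median of 0.45 became 0.92 with scaling on the hybridisation controls, 0.98 without a floor and -0.16 with the background at the 99th percentile (77.3 on SB-OG and 52.2 on control-OG), where 19 genes were left. Among other family genes, 12 were higher without a floor, and 7 were lower without a floor, 1 with the higher background and 5 with the pseudocount. The lower share of all genes was 15.9% without a floor, 11.2% with the higher background and 12.9% with the pseudocount. Scaling on 18 hybridisation controls moved every SB-OG value up by 0.48 on the log2 scale, which gave 3045 genes higher and 906 lower of all genes (77.1% of those 2-fold apart were higher, against 48.9%), and 12 listed genes higher and 9 lower (57.1%, against 47.1%). At 3-fold, 791 genes in all were higher and 795 lower. The probe set with the highest level on either array, a setting chosen after seeing the data, gave 28 listed genes above background, 10 higher and 9 lower, with KCNN3 at 2.73 in place of 0.52. Under that setting 13.0% of all genes were higher and 13.3% lower. Low signal limits SCN4A, CLCN1, KCNH1 and the other genes under background: their use in these cells was not detectable.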
